A study of Mus musculus with 10 samples.

Results

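The regions described here are the exon bins of the longest genes of the mouse genome, read for how much each bin contributes to its gene with and without the ubiquitin protease USP7. A bin is a stretch of exon bounded so that all of its bases belong to the same set of transcripts. Bins were selected on 2 values, the span of their gene and their mean read count. The gene had to span more than 500000 bases from its first to its last bin, the bin had to average at least 10 reads over the 10 libraries, and the first and last bin of each gene were left out. Of 458337 bins in the table, 9204 belonged to 232 genes of that span, 7089 of these passed the count minimum, and 256 end bins were left out. This gave 6833 bins in 215 genes, of which 209 are protein coding, and 17 of the 232 genes had none. Edil3, at 501751 bases, was the gene just inside the span and Dnm3, at 495581 bases, the gene just outside it. A Pde1c bin with a mean of 10 reads was just inside the count minimum, and a Thsd4 bin with a mean of 9.9 reads was just outside it.

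The libraries are total RNA of the cerebral cortex of mice at 18 days of age. The study compared 5 animals of genotype Usp7 cKO; Trp53+/- with 5 of genotype Usp7 WT; Trp53+/-. The knockout joins a floxed Usp7 allele (Usp7 fl/fl) to NEX-cre, whose recombination takes place in glutamatergic neurons. Every animal of both groups was thus heterozygous for Trp53, and the other cells of the cortex kept Usp7. Each group held 2 animals labelled male and 3 labelled female. Usp7 stood at 31.6, 36.0, 40.9, 35.3 and 40.9 TPM (a transcript abundance scaled by gene length and library depth) in the Usp7 cKO libraries and at 53.5, 50.2, 55.7, 48.3 and 61.9 TPM in the Usp7 WT libraries, so the groups did not overlap. Xist was at 116, 96.5, 130, 0.223 and 111 TPM in the Usp7 cKO libraries. In the Usp7 WT libraries it was at 105, 0.0478, 0.053, 0.0408 and 129 TPM. Usp7 cKO replicate 1, which is labelled male, and Usp7 WT replicate 2, which is labelled female, thus both go against their labelled sex. By this transcript, sex was not balanced between the groups. The tests used labelled sex as covariate, and no fit with sex taken from transcripts was run. Bin counts summed to 42628526 to 51797145 per library, and library identifiers run in genotype order, so library order and genotype cannot be told apart.

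In vertebrates, genes of this size consist almost entirely of introns, and many of them encode adhesion molecules, ion channels and scaffolds of neurons. RNA polymerase needs hours to cross them, and topoisomerases and splicing factors are known to matter for their full-length transcription in neurons. Such genes often have several promoters, so that one gene makes long and short proteins, and they hold small exons that are included or skipped according to cell type. Usp7 removes ubiquitin from many nuclear proteins, among them regulators of p53 and of chromatin.

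The 7 printed exons are coding bins whose share of the gene differed between the genotypes and which lie within 1 coding transcript. They were picked, with results known, from the coding bins that differed, 7 higher and 18 lower, and are described further on. Each line reads 5′ to 3′ in the RNA sense and comes from GENCODE vM21 transcripts (GRCm38), with the bin in capitals and 24 bases of the neighbouring coding sequence on each side in lower case.
Celf2 E056, chr2:6962379-6962414, minus strand: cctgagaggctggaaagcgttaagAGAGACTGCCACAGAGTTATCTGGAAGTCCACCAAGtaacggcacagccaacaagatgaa
Nbea E047, chr3:55994048-55994056, minus strand: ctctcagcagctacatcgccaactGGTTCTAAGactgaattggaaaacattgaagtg
Kalrn E029, chr16:34033507-34033599, minus strand: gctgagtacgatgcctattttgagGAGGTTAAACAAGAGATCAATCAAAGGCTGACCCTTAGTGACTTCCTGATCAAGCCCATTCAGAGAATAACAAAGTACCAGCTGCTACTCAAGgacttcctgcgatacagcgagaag
Kalrn E030, chr16:34034456-34034542, minus strand: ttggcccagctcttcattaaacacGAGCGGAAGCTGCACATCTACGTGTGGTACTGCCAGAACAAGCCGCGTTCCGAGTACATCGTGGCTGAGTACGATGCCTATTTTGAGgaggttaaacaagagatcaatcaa
Dmd E044, chrX:83924852-83924989, plus strand: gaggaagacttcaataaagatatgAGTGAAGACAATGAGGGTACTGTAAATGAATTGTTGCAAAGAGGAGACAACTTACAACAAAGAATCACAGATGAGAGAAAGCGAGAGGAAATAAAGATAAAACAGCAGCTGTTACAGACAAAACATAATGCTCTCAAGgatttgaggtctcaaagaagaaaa
Syne1 E062, chr10:5185527-5185557, minus strand: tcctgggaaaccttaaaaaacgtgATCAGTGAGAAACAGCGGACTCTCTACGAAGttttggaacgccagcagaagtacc
Syne1 E098, chr10:5265088-5265231, minus strand: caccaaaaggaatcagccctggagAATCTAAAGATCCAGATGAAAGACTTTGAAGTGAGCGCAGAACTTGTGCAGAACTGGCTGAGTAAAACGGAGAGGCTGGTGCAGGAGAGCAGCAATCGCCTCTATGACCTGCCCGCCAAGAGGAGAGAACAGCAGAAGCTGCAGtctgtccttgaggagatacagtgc
The Celf2 and Nbea bins are whole exons of 36 and 9 bases. The Kalrn bins E029 and E030 are neighbouring whole exons of 93 and 87 bases, and the Dmd and Syne1 E098 bins are whole exons of 138 and 144 bases. All 6 of these lengths are multiples of 3, so that each exon can be left out without a shift of the reading frame. Other coding bins that differed have lengths that are not, such as Kalrn E042 at 244 bases and Pde4d E013 at 230 bases. The share of such lengths over all coding bins was not computed, and skipping of the printed exons was not tested. The Syne1 E062 bin, 31 bases long, is part of an exon.

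The next sequences lie just before first exons whose bins differed between the genotypes, at transcript starts inside or at the 5′ end of the gene. They are the upstream bases, outside all bins of the gene, of the RefSeq promoter windows (GRCm38.p6) at these starts, in lower case with each GGGCGG or CCGCCC (the GC box and its reverse) in capitals. The bins of Celf2, Pde4b and Mast4 fell in Usp7 cKO and those of Kalrn and Cadps2 rose. The shares of the Mast4, Kalrn and Cadps2 bins overlapped between the groups.
Celf2, before E068, chr2:7396199-7396448, minus strand: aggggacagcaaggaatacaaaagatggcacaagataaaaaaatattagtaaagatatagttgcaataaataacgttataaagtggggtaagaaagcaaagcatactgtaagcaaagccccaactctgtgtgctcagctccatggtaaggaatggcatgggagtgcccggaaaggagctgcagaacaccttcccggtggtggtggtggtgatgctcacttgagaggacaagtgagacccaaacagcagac
Pde4b, before E011, chr4:102421305-102421517, plus strand: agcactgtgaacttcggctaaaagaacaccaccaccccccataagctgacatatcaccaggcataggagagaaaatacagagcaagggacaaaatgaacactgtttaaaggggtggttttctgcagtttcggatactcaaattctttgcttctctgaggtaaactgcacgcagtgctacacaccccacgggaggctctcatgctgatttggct
Mast4, before E065, chr13:103334498-103334742, minus strand: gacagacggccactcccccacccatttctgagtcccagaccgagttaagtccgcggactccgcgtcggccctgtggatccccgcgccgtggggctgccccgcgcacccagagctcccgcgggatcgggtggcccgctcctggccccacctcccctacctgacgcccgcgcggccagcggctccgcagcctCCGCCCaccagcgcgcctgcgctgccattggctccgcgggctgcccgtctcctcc
Kalrn, before E101, chr16:34514116-34514277, minus strand: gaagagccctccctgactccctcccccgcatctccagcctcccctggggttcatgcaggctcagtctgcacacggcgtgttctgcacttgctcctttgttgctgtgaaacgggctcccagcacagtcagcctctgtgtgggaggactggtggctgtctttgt
Cadps2, before E060, chr6:23839422-23839671, minus strand: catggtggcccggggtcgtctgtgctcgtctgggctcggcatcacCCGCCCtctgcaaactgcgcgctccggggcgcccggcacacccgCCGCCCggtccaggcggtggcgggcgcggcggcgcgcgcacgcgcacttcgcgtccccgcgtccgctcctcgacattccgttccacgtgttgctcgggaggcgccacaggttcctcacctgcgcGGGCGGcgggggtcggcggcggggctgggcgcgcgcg
A RefSeq start was found at all 8 first-exon bins looked up, the others being those of Dlgap1, Pde4d and Cdk14. The Dlgap1 start lies 195 bases inside bin E024, and the Pde4d window before E005 runs over bin E004, an internal exon. Whether these starts belong to the Dlgap1 and Pde4d bins is therefore unclear, though both are counted among the 8. In the 250 bases before the start, GGGCGG or CCGCCC on either strand was present at 3 of the 8, those of Mast4, Cadps2 and Cdk14, against 32.7% of 32851 RefSeq windows of the same length. The windows of Celf2, Pde4d and Pde4b held 3, 1 and 5 CG dinucleotides, and those of Mast4, Cdk14 and Cadps2 held 30, 43 and 44, where the median over all windows was 6. TATAAA or its reverse TTTATA was present at 1 of the 8, that of Celf2, against 12.4% of all windows. The fallen and the risen bins therefore both included starts in CG-rich sequence.

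Of the 6830 member bins that could be tested, 80 in 26 genes differed in share between Usp7 cKO and Usp7 WT (edgeR's quasi-likelihood exon usage test with Benjamini-Hochberg adjustment over all genes, adjusted p under 0.05), which is 1.17% of them, beside 0.43% of the 228098 bins tested in all genes. A bin passing that threshold is termed called. Calls were split evenly, with 41 bins higher and 39 lower in Usp7 cKO. Over all genes calls were mostly rises, 0.331% of bins being higher and 0.0986% lower, so members were called lower in 0.571% of cases and higher in 0.600%. The size of change was otherwise ordinary: the median absolute log2 change of a bin relative to its gene was 0.09 in members and 0.08 over all bins. Members also held more reads. In internal exons their median bin averaged 131 reads, beside 84.2 over interior bins of all genes, and in bins of first exons alone 59.2 beside 34. The part of depth in the larger share of calls was not tested. Of the 80 called bins, 45 had shares that did not overlap between the 5 and 5 libraries, and 3.29% of all member bins had such shares, beside 1.62% of interior bins of all genes at the same count minimum. The count was 50 without both libraries of discordant sex, 43 without Usp7 cKO replicate 5 and 48 without Usp7 WT replicate 1. The authors' deposited table called 152 member bins, 2.22% of them, beside 0.648% of all these bins. It shared 54 bins with the 80, all with the same sign, which is 67.5% of the 80 and 35.5% of the 152.

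The cortex is a mixture of cells, and in bulk RNA fewer cells of a type and less RNA per cell cannot be told apart. The summed TPM of 8 markers of glutamatergic neurons, none of them at 0, ranged from 7525 to 8787 in Usp7 WT libraries. In Usp7 cKO libraries it ranged from 4303 to 5366. Of the 8 markers 7 fell, and their median log2 change was -0.40. The sum gives most weight to abundant markers, so the median is the better measure of a typical marker. Neurod6 changed by -1.10 and Slc17a7 by -0.39 on the log2 scale (limma). The part of the NEX-cre allele in the level of Neurod6 was not tested. All 8 microglial markers fell too, their sum ranging from 318 to 361 TPM in Usp7 WT, beside 216 to 250 TPM in Usp7 cKO. Of the other lists, 1 of 7 astrocyte markers and 1 of 6 markers of oligodendrocyte precursors rose, 1 of 8 markers of GABAergic neurons fell, and none of 7 oligodendrocyte, 6 endothelial and 4 red blood cell markers passed the test in limma. The part of these markers in the bin changes was not tested.

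**Figure D1:**
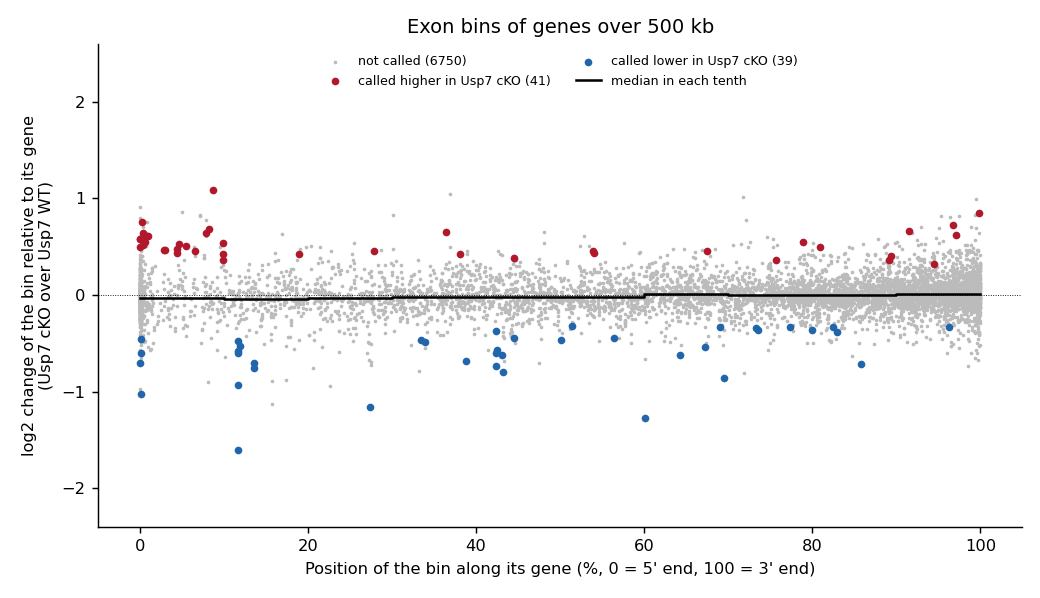
Change of each tested member bin relative to its gene (y axis, log2, Usp7 cKO over Usp7 WT) against its position along the gene (x axis, percent of the span from the 5′ end), with the median in each 10% of the span as a black step line. Of 41 bins called higher, 23 lie in the first 10%, and the median goes from -0.03 there to 0.01 in the last 10%.

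Position along the gene went with the sign of the change to a small degree. Bins near the 5′ end were slightly lower and bins near the 3′ end slightly higher in Usp7 cKO: the median relative change was -0.03, -0.04 and -0.03 on the log2 scale from 0 to 10%, 10 to 20% and 20 to 30% of the span, and 0.01 in the last 10%. Across the 6830 bins, which share libraries and genes, position and relative change had a Spearman correlation of 0.116, beside 0.0566 across 207175 interior bins of genes of 500 kb or less. Within single genes the correlation was positive in 129 of 203 genes with at least 5 tested bins (63.5%), beside 57.2% of 10395 shorter genes. The shift was thus in the same direction in genes of both lengths and small in both. The libraries overlapped in it: the median share of counts on the 5′ side of the gene's midpoint was 30.9, 30.7, 28.7, 32.4 and 32.1% in the Usp7 WT libraries and 29.2, 29.3, 30, 28.3 and 29.7% in the Usp7 cKO libraries. In shorter genes it was 37.4 to 38.9% in Usp7 WT, beside 37 to 38.2% in Usp7 cKO.

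Called bins in the first 10% of the span did not follow that gradient. The first 10% of the span held 654 tested bins, of which 23 were higher and 4 lower, and the last 10% held 2250, of which 5 were higher and 1 lower. These are 4.13% and 0.267% called. In genes of 500 kb or less the first 10% also had more calls, mostly rises. There 103 of 25314 interior bins were higher and 41 lower (0.569%), beside 57 of 32783 higher and 17 lower in the last 10% (0.226%). The members' rises at the 5′ end came from few genes: 13 of the 23 were bins of Snhg14, 3 of Kalrn, 2 of Nav2 and 2 of Rbfox1, with 1 each in Cadps2, Cdk14 and Vps13b. The 4 falls there were 3 bins of Mast4 and 1 of Nrg1. The stretch from 10 to 20% held 266 tested bins, of which 1 was higher and 8 lower, in the direction of the gradient. Celf2 bins E064 to E068 were among the 8. In the shorter genes that stretch held 10860 tested bins, of which 48 were higher and 8 lower. First exons were involved in 30 of the 80 bins, 14 higher and 16 lower, in 16 genes. Among members, 2.13% of bins found in first exons alone and 2.04% of those found in a first exon and elsewhere were called, against 0.945% of bins found in internal exons alone. Over interior bins of all genes these shares were 0.92, 0.464 and 0.213%. Member bins of noncoding transcripts were called in 5.48% of cases, most of them in Snhg14, and coding exons in 0.538%. The shares of these 2 classes over all genes were not computed.

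Falls at starts inside the gene were found in several regulators. Celf2, an RNA-binding protein that controls splicing and RNA stability, had 8 bins lower and none higher, all in the 5′ 56.4% of the gene. Its bin E068 (chr2:7396132-7396198, the first exon behind the Celf2 upstream sequence printed above) took 0.424, 0.373, 0.393, 0.406 and 0.444% of the gene's bin counts in the Usp7 WT libraries. In the Usp7 cKO libraries it took 0.228, 0.229, 0.246, 0.195 and 0.181%, so all 5 lay below all Usp7 WT libraries. The mean fell from 0.408 ± 0.0277% to 0.216 ± 0.0266% (SD, n = 5 each), or -0.93 on the log2 scale relative to the gene (adjusted p = 4.09e-07 in edgeR). The neighbouring bins E065, E066 and E067, also found in first exons, changed by -0.48, -0.58 and -0.60, the last of them lost in 7 of the 17 alternatives run for single bins, with an edgeR adjusted p up to 0.118. The 36-base coding exon E056 took 1.97, 1.77, 1.69, 1.82 and 1.88% in Usp7 WT and 1.37, 1.23, 1.37, 1.48 and 1.25% in Usp7 cKO, again without overlap (log2 change -0.45, edgeR adjusted p = 0.000553). All 13 Celf2 bins up to E056 were below 0 and together went from 10.6 ± 0.511% to 7.60 ± 0.575% of the gene's member counts, while the 52 bins after it had a median change of 0.03. This stretch, and those of the other genes described so, was chosen after its values were seen.

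Dlgap1, Pde4d, Pde4b and Frmpd4 also had bins that fell, among them first-exon bins of Dlgap1, Pde4d and Pde4b. The Pde4d first-exon bin, E005, was called with overlapping shares (log2 change -0.71, edgeR adjusted p = 0.0365). That call was lost in 10 of the 17 alternatives, and the bin's adjusted p in the authors' deposited table was 0.265. Dlgap1, a scaffold of the postsynaptic density, fell in bin E024 (chr17:70561552-70561871), the first exon of a short transcript 69.5% of the way along the gene. The bin took 0.353, 0.388, 0.394, 0.377 and 0.329% in Usp7 WT and 0.180, 0.214, 0.234, 0.191 and 0.197% in Usp7 cKO, a log2 change of -0.86 (edgeR, adjusted p = 1.86e-05). No Usp7 cKO library reached the lowest Usp7 WT library. Pde4d, a phosphodiesterase that degrades cyclic AMP, had 4 bins lower and none higher. Its bin E012 (chr13:108860208-108861128, a last exon of noncoding transcripts) took 0.851, 0.973, 1.05, 0.952 and 1.11% in Usp7 WT and 0.520, 0.166, 0.620, 0.468 and 0.435% in Usp7 cKO (log2 change -1.16, edgeR adjusted p = 1.82e-05). Pde4b, of the same enzyme family, fell in E011 (chr4:102421549-102421820) from 2.17 ± 0.304% to 1.41 ± 0.191% (SD, n = 5), with a log2 change of -0.62 and no overlap (edgeR, adjusted p = 0.00351). Frmpd4, a postsynaptic scaffold, fell in bin E027 (chrX:168447948-168448042, an internal exon). The bin took 0.287 to 0.408% in Usp7 WT, beside 0.0483 to 0.163% in Usp7 cKO (log2 change -1.60, edgeR adjusted p = 0.00122), but averaged 11.6 reads per library. Its Usp7 cKO mean was under 10 reads, so that it passed the count minimum through the Usp7 WT libraries alone.

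Mast4 and Nrg1 fell in first exons at the 5′ end of the gene. Mast4, a microtubule-associated kinase, fell in 3 bins within the first 0.182% of the gene. Its coding bin E064 (chr13:103333836-103334192) took 3.15, 3.33, 2.84, 2.59 and 3.76% in Usp7 WT and 2.04, 1.90, 2.24, 2.33 and 1.75% in Usp7 cKO, without overlap (log2 change -0.60, edgeR adjusted p = 0.00514). Nrg1, a ligand of the ErbB receptors, fell in E068 (chr8:32883516-32883862). That bin took 13.1, 10, 10.3, 10.8 and 14.7% in Usp7 WT and 7.41, 8.80, 9.99, 8.05 and 8.55% in Usp7 cKO (log2 change -0.46, edgeR adjusted p = 0.00213). The lowest Usp7 WT library and the highest Usp7 cKO library were only just apart, and the authors' deposited table gives this bin an adjusted p of 0.0618.

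Rises in first exons were found in Rbfox1, Ptprd, Cadps2 and Kalrn. Rbfox1, a splicing regulator of neurons, rose in bin E002 at the 5′ end of the gene (chr16:5885587-5885864), from 2.39, 2.19, 2.16, 2.49 and 2.92% in Usp7 WT to 3.18, 3.57, 4, 3.42 and 3.97% in Usp7 cKO (log2 change 0.58, edgeR adjusted p = 1.03e-06). Its bin E011 (chr16:7193747-7193877), a first exon 85.7% of the way along, fell from 0.629, 0.454, 0.514, 0.566 and 0.472% to 0.378, 0.319, 0.366, 0.258 and 0.300% (log2 change -0.71, edgeR adjusted p = 0.00182). Within this single gene, then, a far upstream first exon was higher and a downstream one lower, neither with overlap. Ptprd, a receptor phosphatase that organises synapses, rose in E048 (chr4:76133883-76134143), the first exon of a short form 91.5% of the way along. It took 0.523, 0.503, 0.446, 0.390 and 0.417% in Usp7 WT and 0.723, 0.660, 0.812, 0.559 and 0.855% in Usp7 cKO (log2 change 0.66, edgeR adjusted p = 7.93e-07). Cadps2, which primes dense-core vesicles for release, rose in E060 (chr6:23839301-23839420), but its libraries overlapped. They stood at 11.5, 6.68, 8.42, 12.9 and 9.78% in Usp7 WT and 12.1, 12.5, 8.91, 14.3 and 20.9% in Usp7 cKO (log2 change 0.49, edgeR adjusted p = 0.00308), and the authors' deposited table gives it an adjusted p of 0.650. The Kalrn first-exon bins E101, E102 and E103 rose with overlap. E101 went from 0.313 ± 0.0404% to 0.405 ± 0.0464% (log2 change 0.37, edgeR adjusted p = 0.0326), and the authors' deposited table gives it an adjusted p of 0.0789. The calls on E101, E102 and E103 were lost in 12, 13 and 9 of the 17 alternatives.

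**Figure D2:**
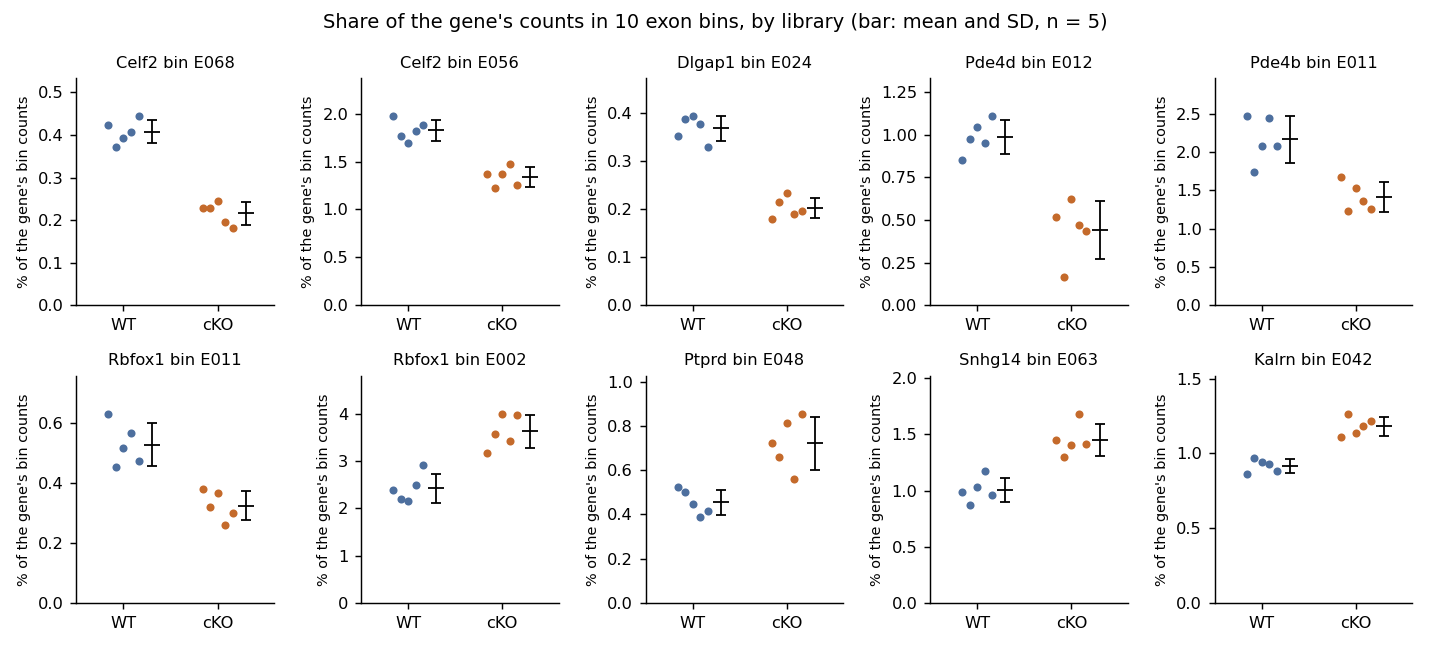
Share of the gene's bin counts (y axis, percent) in 10 named bins, 1 point for each library, with the mean and SD of 5 libraries beside each group of Usp7 WT (WT) and Usp7 cKO (cKO). No panel has overlapping groups: Celf2 E068, Celf2 E056, Dlgap1 E024, Pde4d E012, Pde4b E011 and Rbfox1 E011 are lower in all 5 Usp7 cKO libraries, and Rbfox1 E002, Ptprd E048, Snhg14 E063 and Kalrn E042 are higher.

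Snhg14 is a long noncoding RNA of an imprinted region; it is the host of several clusters of small nucleolar RNAs, and its 3′ part runs antisense to Ube3a. All 18 of its tested bins in the first 5.48% of the gene were above 0 and 13 of them were called, while 43 of the 54 bins after that were below 0 and 1 of them was called lower. The 5′ bins together rose from 9.52 ± 0.938% to 13.6 ± 1.89% of the gene's member counts (SD, n = 5). Bin E063 (chr7:59944576-59944714) took 0.991, 0.872, 1.03, 1.17 and 0.964% in Usp7 WT and 1.45, 1.3, 1.4, 1.68 and 1.41% in Usp7 cKO, without overlap (log2 change 0.53, edgeR adjusted p = 9.21e-06). The snoRNA clusters are made of near-identical copies, so counts over them are uncertain. The level of the gene was 63.2 TPM in Usp7 WT, beside 64.2 TPM in Usp7 cKO (limma, log2 change 0.02, adjusted p = 0.901).

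Syne1 and Kalrn changed by stretches rather than by single exons. Syne1 encodes nesprin-1, a giant spectrin-repeat protein of the nuclear envelope, and holds 161 member bins. All 96 bins from the 5′ end to 65.9% of the span lay above 0, with a median of 0.23, and 64 of the 65 bins from 67.2% onward lay below 0, with a median of -0.23. The first bin of the downstream stretch is E066 (chr10:5194668-5194707), the first exon of a shorter transcript. It took 0.292, 0.281, 0.273, 0.304 and 0.271% in Usp7 WT and 0.204, 0.168, 0.214, 0.216 and 0.177% in Usp7 cKO, without overlap (log2 change -0.53, edgeR adjusted p = 0.0022). Of single bins, 3 in the upstream stretch were called higher and 9 in the downstream stretch lower, among them the printed E098 and E062. The upstream stretch went from 47.4 ± 1.56% to 55.6 ± 1.03% of the gene's member counts (SD, n = 5). Kalrn, a guanine nucleotide exchange factor of dendritic spines, showed 3 stretches. Its 22 bins before the first exon E081, at 51.4% of the span, had a median of 0.18, its 39 bins from there to 69.7% a median of -0.10, and its 39 bins from E042 (75.6%) on a median of 0.25. The middle stretch went from 70.6 ± 1.02% to 65.8 ± 1.78% of the counts. In the last stretch the coding bins E042, E029 and E030 rose, E042 from 0.859, 0.972, 0.944, 0.930 and 0.882% to 1.11, 1.26, 1.13, 1.18 and 1.22% without overlap (log2 change 0.36, edgeR adjusted p = 0.00466).

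**Figure D3:**
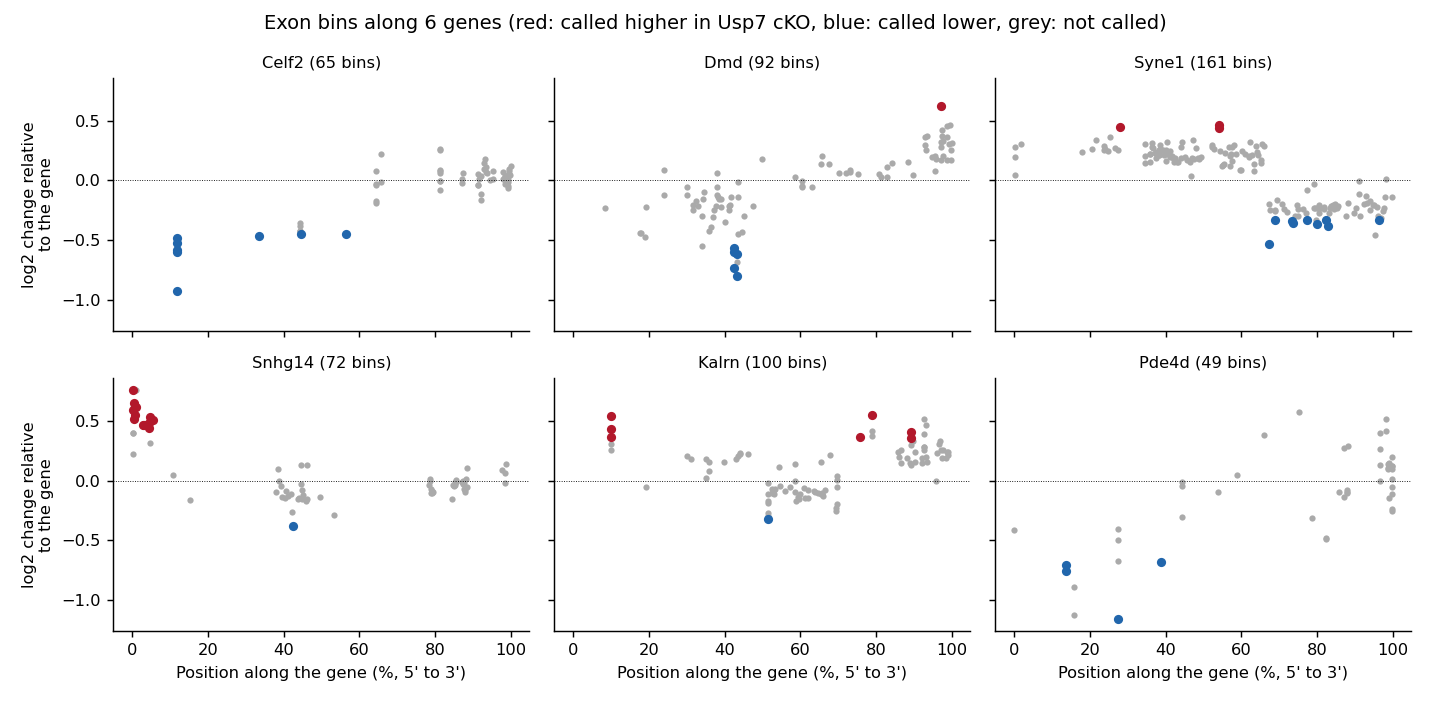
Relative log2 change of every tested member bin (y axis) along Celf2, Dmd, Syne1, Snhg14, Kalrn and Pde4d (x axis, percent of the span from the 5′ end), with called bins in red (higher in Usp7 cKO) and blue (lower). Syne1 steps from above to below 0 between 65.9 and 67.2% of its span, and the 18 Snhg14 bins nearest the 5′ end all lie above 0.

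A small coding exon also differed. The 9-base exon E047 of Nbea, a protein of synaptic vesicle and receptor traffic, took 0.494, 0.522, 0.505, 0.525 and 0.364% in Usp7 WT and 0.439, 0.370, 0.302, 0.336 and 0.281% in Usp7 cKO. It was called at a log2 change of -0.49 (edgeR, adjusted p = 0.00924), but 1 Usp7 WT library lay among the Usp7 cKO libraries. Spliced reads gave the same direction without passing the test: the introns on both sides of the Nbea exon took 36.1 and 35.1% of their cluster in Usp7 WT and 30.3 and 28.2% in Usp7 cKO (edgeR, cluster adjusted p = 0.854). Of 377 bins of retained-intron transcripts, 6 were called higher and 1 lower (1.86%), and their median change was 0.08. Member bins of untranslated or part-coding exons were called in 1.85% of cases. The share of calls over retained-intron bins of all genes was not computed. Vps13b, a protein of Golgi transport, rose in E012 (chr15:35419285-35420151) from 0.173, 0.211, 0.209, 0.183 and 0.259% to 0.304, 0.453, 0.487, 0.484 and 0.493% (log2 change 1.09, edgeR adjusted p = 0.00233). Nav2, which binds microtubules in growing neurites, rose in E007 (chr7:48964441-48967836) from 0.528 ± 0.0284% to 0.852 ± 0.048% (SD, n = 5), with a log2 change of 0.69 (edgeR, adjusted p = 0.00512). Bins of retained-intron transcripts together took 1.72 to 2.10% of member counts in the Usp7 WT libraries and 1.72 to 2.12% in the Usp7 cKO libraries.

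Of the bins described one by one, Celf2 E056 and E068, Dlgap1 E024, Pde4d E012, Nrg1 E068, Rbfox1 E002 and E011, Ptprd E048, Snhg14 E063, Syne1 E066 and Vps13b E012 were called under every alternative run for them, 16 for Vps13b E012 and 17 for each of the others. Other bins lost their call in some alternatives, mostly when 1 library was left out. Without Usp7 WT replicate 1 the edgeR adjusted p was 0.0642 for Pde4b E011 and 0.0602 for Kalrn E042. Without Usp7 cKO replicate 5 it was 0.0546 for Mast4 E064, 0.0506 for Nav2 E007, 0.175 for Kalrn E029 and 0.645 for Cadps2 E060, and without Usp7 WT replicate 5 it was 0.0718 for Mast4 E064. The Cadps2 call needed Usp7 WT replicates 2 and 3 as well, with an adjusted p of 0.168 without the former and 0.0688 without the latter. Nbea E047 was lost without Usp7 cKO replicate 4 or 5 or Usp7 WT replicate 1 or 2, with its adjusted p reaching 0.113. The calls on Nbea E047 and Cadps2 E060 were also lost without both libraries of discordant sex. Without both libraries of discordant sex the adjusted p was 0.0716 for Frmpd4 E027. For Syne1 E062 the call was lost in 10 of 17 alternatives, with an adjusted p up to 0.619. The call on Syne1 bin E098 was lost in 3 alternatives. Its adjusted p was 0.175 without both libraries of discordant sex, 0.0657 without Usp7 WT replicate 2 and 0.0618 without Usp7 WT replicate 3. With no covariate for sex the adjusted p of Nav2 E007 was 0.117 (log2 change 0.68). The 6 Dmd bins and Kalrn E030 each depended on 3 or more single libraries.

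By gene, 23 of 212 tested genes over 500 kb had changed exon usage (edgeR, Simes adjusted p under 0.05), 10.8% of them beside 2.85% of all 13954 genes, which have fewer bins each. The count was 12 without Usp7 cKO replicate 5, 13 without Usp7 WT replicate 1 and 15 without Usp7 cKO replicate 4. Rbfox1 (adjusted p = 3.11e-09), Celf2 (2.59e-06), Ptprd (6.3e-06), Snhg14 (8.54e-06) and Cdh18 (8.39e-05) led by edgeR's adjusted Simes p. This gene test took in end bins that passed the count minimum, so in Rbfox1 it used 29 bins, of which 27 are members. The part of end bins in the Simes p of genes with called members was not tested. Cdh18, a cadherin, Dpp10, a partner of potassium channels, and Wwox, an oxidoreductase at a fragile site, were called through end bins and had no called member. The member of smallest p in Cdh18, E012, took 4.92 to 6.20% in Usp7 WT, beside 6.18 to 7.45% in Usp7 cKO, and that in Dpp10, E010, took 0.967 to 1.45% and 0.667 to 1.15%. The member of smallest p in Ank2, an ankyrin, was E025, at 0.0449 to 0.0638% in Usp7 WT, beside 0.0581 to 0.163% in Usp7 cKO (log2 change 0.73, edgeR adjusted p = 0.000338), with overlap. Without Usp7 cKO replicate 1, its highest library, the call on the Ank2 bin was lost (log2 change 0.38, edgeR adjusted p = 0.782). That call was also lost without both libraries of discordant sex, of which Usp7 cKO replicate 1 is one.

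Grouped by role, calls were spread over several lists, which together cover 143 of the 215 genes and were drawn up with earlier results of these data known. Changed exon usage was found in 2 of 4 RNA-binding and splicing regulators (Rbfox1 and Celf2), in 3 of 12 synaptic scaffold and release genes (Dlgap1, Frmpd4 and Cadps2), and in 3 of 11 cytoskeletal genes (Ank2, Nav2 and Dmd). It was found in 3 of 28 synaptic adhesion genes (among them Ptprd and Cdh18). Among genes of potassium channels and their partners it was found in 2 of 6 (Dpp10 and Kcnma1). On the list of cyclic nucleotide and kinase signalling it was found in 2 of 17 genes (Pde4d and Pde4b). That list also holds other genes, such as Asic2, Gpc5 and Nell1. Of 20 genes at common fragile sites, changed exon usage was found in 3 (Wwox, Vps13b and Dmd). It was also found in 1 of 10 axon guidance genes (Nrg1) and 1 of 5 cation channel genes (Cacna1c). None of 13 contactin and IgLON genes, 6 glutamate receptors, 1 GABA receptor gene and 13 genes of the list of transcription factors and chromatin proteins passed, their smallest adjusted Simes p in edgeR being 0.301 for Sdk1, 0.47 for Grik2, 1 for Gabrg3 and 0.129 for Sox5. Of 53 transcription elongation and termination factors, which are not members, 1 rose and 2 fell in level.

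The balance between the 5′ and the 3′ side of the gene, split at the midpoint of its span, was tested in 181 of the genes over 500 kb. It changed in 6 of them, 3.31% beside 0.398% of all 8547 genes tested (edgeR, adjusted p under 0.05). In 5 of the 6 it moved toward the 3′ side, whereas the other genes called numbered 22 toward the 5′ side and 6 toward the 3′ side. The median change was -0.04 on the log2 scale in genes over 500 kb and -0.02 in the others, and 124 of the 181 genes (68.5%) were below 0, beside 58.4% of the others. The count was 3 without both libraries of discordant sex, and also 3 without any 1 of Usp7 cKO replicates 2 and 4 and Usp7 WT replicates 1 and 5. With the split set for equal numbers of bins it was 2, Dmd and Syne1. Only Dmd passed under each of the 19 alternatives run for this result, while Mast4 was lost in 10, Nrg1 in 10 and Syne1 in 6 of them.

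Dystrophin, the product of Dmd, links the cytoskeleton to the membrane and has short forms made from internal promoters. The 5′ side of Dmd held 50.2, 48.6, 49.1, 50.5 and 48.4% of the member counts in Usp7 WT and 43.3, 38.5, 40.1, 43.1 and 40.8% in Usp7 cKO, a log2 change of the ratio of -0.48 (edgeR, adjusted p = 0.00308). No Usp7 cKO library came near the Usp7 WT range. Its 5 coding bins E040 to E044, among them the printed E044, were lower, and a retained-intron bin near the 3′ end, E087, was higher. The 5′ side of Celf2 held 9.03, 8.35, 8.24, 9.21 and 8.89% in Usp7 WT and 6.87, 5.79, 6.76, 6.02 and 5.83% in Usp7 cKO (log2 change -0.53, edgeR adjusted p = 3.98e-05), again without overlap. In Mast4 it went from 14.1 ± 1.57% to 10 ± 1.05% (log2 change -0.55, edgeR adjusted p = 0.0321), and in Nrg1 from 29.9 ± 4.80% to 23.5 ± 2.28% with overlap (log2 change -0.47, edgeR adjusted p = 0.0358). The 5′ side of Nrg1 held only 3 of its 37 member bins, among them the called bin E068 described above. A830018L16Rik, named after its values were seen, went from 92.1 ± 1.16% to 88.7 ± 1.25% (log2 change -0.58, edgeR adjusted p = 0.00461). Syne1 moved the other way, its 5′ side holding 32.5, 33.4, 34.2, 35.9 and 32.4% in Usp7 WT and 39.7, 41.5, 38.4, 39.9 and 37.9% in Usp7 cKO (log2 change 0.36, edgeR adjusted p = 0.0205).

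**Figure D4:**
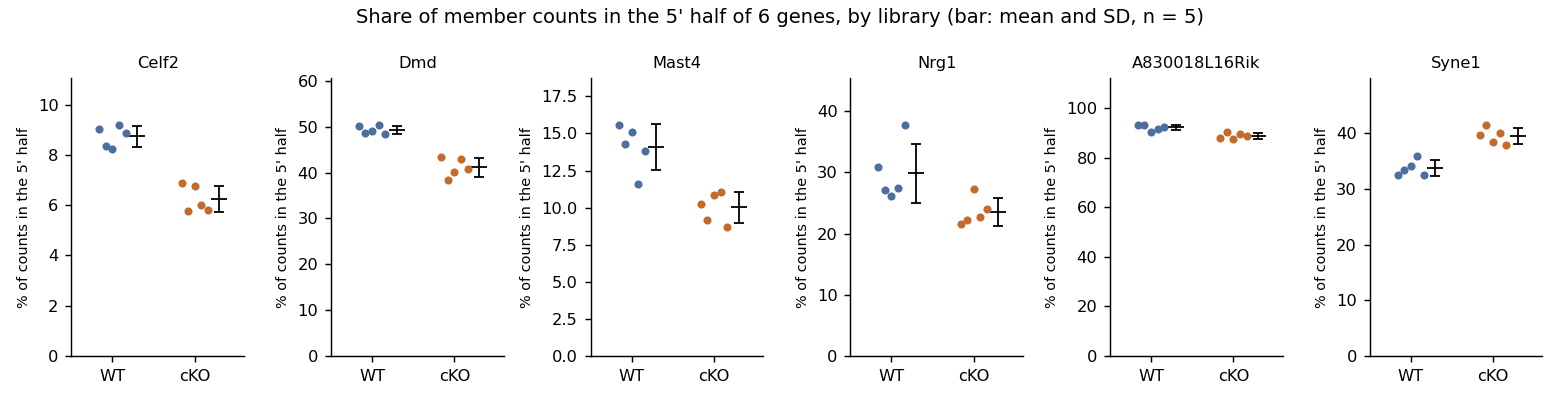
Share of member counts in the 5′ side of the gene (y axis, percent) in the 6 genes whose balance was called, 1 point for each library with the mean and SD of 5 beside each group. Celf2, Dmd, Mast4, Nrg1 and A830018L16Rik are lower in Usp7 cKO and Syne1 is higher; only in Nrg1 do the groups overlap.

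The level of these genes, which the selection did not use beyond the count minimum, was lower on the whole in Usp7 cKO. Member bins held 3.48 to 3.57% of all bin counts in the Usp7 WT libraries and 3.34 to 3.38% in the Usp7 cKO libraries, without overlap. Of the 215 genes, 48 (22.3%) fell and 17 (7.91%) rose, beside 4.67% lower and 9.22% higher over all 27580 genes tested (limma on log2(TPM + 0.5), adjusted p under 0.05). Their median log2 change was -0.06, beside 0.06 over all genes. The share of genes called lower was 3.64% at spans up to 50 kb, 8.42% at 50 to 150 kb, 13.6% at 150 to 500 kb, 22.7% at 500 to 1000 kb and 21.4% above that. Counts of calls were larger with bin counts in place of TPM, 27 higher and 87 lower with edgeR, and smaller without both libraries of discordant sex, 9 higher and 27 lower. The part of the lower glutamatergic markers in these falls was not tested. Of the 65 genes called on level, 8 also had changed exon usage.

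**Figure D5:**
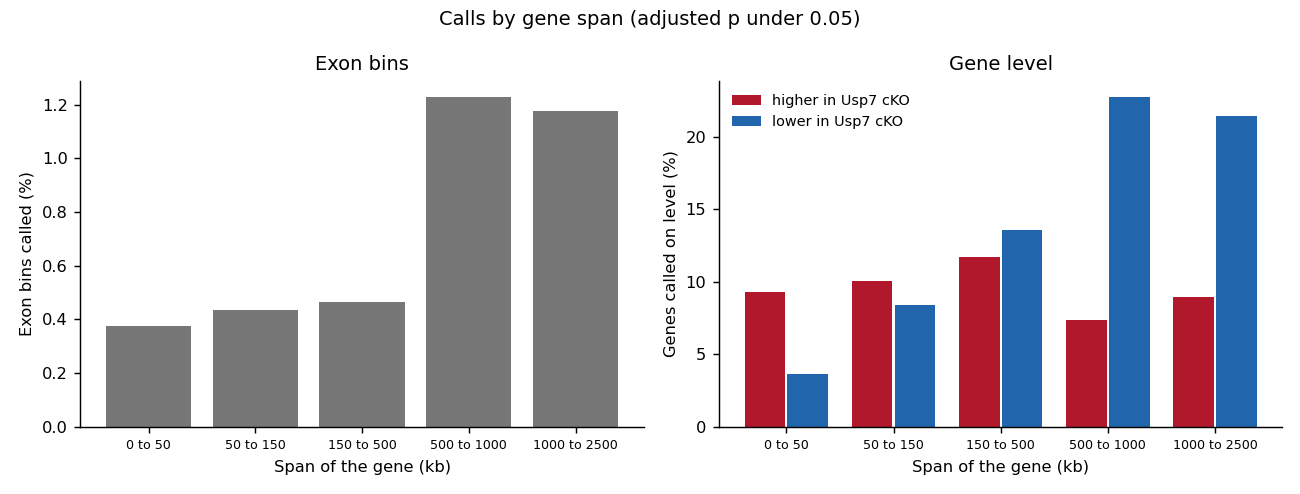
Percent of exon bins called (left, end bins included) and of genes called higher or lower on level (right) in 5 classes of gene span in kb, bars starting at 0. Bins were called in 1.23% of cases at 500 to 1000 kb and in 0.465% at 150 to 500 kb, and the share of genes called lower is highest in the classes above 500 kb.

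Rims1, an organiser of the presynaptic active zone, stood at 280, 296, 324, 265 and 312 TPM in Usp7 WT, beside 189, 196, 208, 181 and 173 TPM in Usp7 cKO, a log2 change of -0.64 (SE 0.07, limma adjusted p = 0.000206). Il1rapl2, a synaptic adhesion protein, was at 9.35, 8.97, 9.94, 8.35 and 11.9 TPM in Usp7 WT, beside 5.27, 6.04, 5.24, 4.79 and 5.29 TPM in Usp7 cKO (limma, log2 change -0.80, SE 0.10, adjusted p = 0.000733). Neither pair of groups overlapped. Dmd went from 19.6 to 13.1 TPM (log2 change -0.57, limma adjusted p = 0.0019) and Arhgap15, a Rac regulator at low level, from 1.82 to 0.909 TPM (log2 change -0.72, limma adjusted p = 0.0116). Among the rises, Rbms3, an RNA-binding protein, was at 4.99, 4.92, 5.79, 5.44 and 6.62 TPM in Usp7 WT, beside 9.13, 8.07, 8.91, 9.03 and 9.72 TPM in Usp7 cKO (limma, log2 change 0.65, SE 0.10, adjusted p = 0.00226). Cdh13, a cadherin anchored by lipid, rose by 0.58, Nckap5 by 0.58 and Wwox by 0.57 on the log2 scale, with adjusted p of 0.00308, 0.00816 and 0.00218 in limma. By role, 6 of 12 synaptic scaffold and release genes were lower and 0 higher. Of 6 genes of potassium channels and their partners, 4 were lower and 0 higher. Of 29 synaptic adhesion genes, 10 were lower and 3 higher. Over the whole of these lists, shorter genes included, 14 of 32, 10 of 20 and 13 of 45 were lower, against 1, 2 and 4 higher. Of the 13 genes on the list of transcription factors and chromatin proteins 3 were higher and none lower, while over all 55 tested genes of that list, shorter genes included, 6 were higher and 7 lower.

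Spliced reads were tested in 482 intron clusters of 147 of the genes, and 2 were called, 0.415% beside 0.22% of all 10441 clusters (edgeR, Simes adjusted p under 0.05). Both lie at first exons whose bins were called. In Dlgap1 the intron that begins at the end of bin E024 (chr17:70561871-70593167) took 6.77, 6.68, 6.24, 6.01 and 4.46% of its cluster in Usp7 WT and 1.96, 0.741, 1.85, 1.33 and 0.690% in Usp7 cKO, on 312 and 50 reads in all (log2 change -2.22). No Usp7 cKO library came near the Usp7 WT range. In Rbfox1 the intron that begins at the end of bin E011 (chr16:7193877-7224311) took 10.2, 6.80, 6.86, 9.56 and 7.74% in Usp7 WT and 4.74, 3.41, 2.61, 2.64 and 0.757% in Usp7 cKO (log2 change -1.60, edgeR adjusted p = 0.000599). A second Rbfox1 intron with the same 3′ end (chr16:7217829-7224311) went from 11.6 ± 1.79% to 4.64 ± 2.13%, and the one from the farthest upstream 5′ end (chr16:6809248-7224311) from 66.8 ± 2.06% to 75.6 ± 1.89% (SD, n = 5), which was not called by itself (edgeR, adjusted p = 1). The bin counts and the spliced reads come from the same libraries.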

How the data were processed

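RNA of 10 cortices was sequenced, 1 library per animal, after ribosomal RNA was removed with RNase H and cDNA synthesis began from random hexamers (labels' protocols). The authors deposited raw read counts per exon bin with DEXSeq's p-value and log2 fold change for each bin, per the file headers, TPM per gene, and counts of spliced reads per intron. The submitters' processing notes name STAR 2.7.9a, SAMtools 1.10 and GRCm38; the strand setting of the counting is not given in the sources used here, so overlapping and antisense genes cannot be told apart in the counts. In Usp7 WT replicate 1 all intron counts were even, and they were divided by 2.

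Bins with a mean of at least 10 reads were fitted with edgeR 4.0.16 (glmQLFit and diffSpliceDGE, TMM scaling, R 4.3.3), with labelled sex as covariate. Introns with a mean of at least 5 reads and sums over the 5′ and 3′ sides of each gene (at least 2 bins and a mean of 50 reads on each side) were fitted likewise. Level was tested with limma 3.58.1 on log2(TPM + 0.5) in genes averaging 0.5 TPM or more. All p-values are two-sided and were adjusted by Benjamini-Hochberg over all features tested, with a threshold of 0.05. The change of a bin is given on the log2 scale after subtracting the change of the whole gene, and its share is its percent of the gene's bin counts. The code was tested on simulated data. DESeq2 1.42.0, limma's voom, other scalings, filters and left-out libraries were alternatives.

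Named genes, symbols of the Gm or Rik form left out, were those called with the 10 smallest Simes p (with their bin of smallest p), up to 6 called balance changes each way (5 genes met this), the 5 largest called bin changes each way without overlap, up to 3 genes of each list, the 4 largest called level changes each way and the called intron clusters. Other bins of these genes were named after their values were seen. The bins and lists were chosen with earlier results of these data known. Replicates are separate animals per the labels. The bins of a further gene are not reported here.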

Additional observations from a re-analysis of the deposited data

Results flagged for a closer look

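In 54 groups of 5 libraries, 1 library stood apart from the other 4 in 5 cases by Dixon's test at its 95% critical value of 0.71, and chance flags about 5% of groups. In Ank2 bin E025, Usp7 cKO replicate 1 was the highest of its group at 0.163% of the gene's bin counts. In Dmd bin E087, Usp7 cKO replicate 2 was the highest at 1.77%. In Vps13b bin E012, Usp7 cKO replicate 1 was the lowest at 0.304%, still above all Usp7 WT libraries. In Cdh18 bin E012, Usp7 cKO replicate 4 was the highest at 7.45%, and in Dpp10 bin E010, Usp7 WT replicate 4 was the highest at 1.45%. Neither the Cdh18 nor the Dpp10 bin was called.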

How the results depend on the processing

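The labels do not say which animals form the 5 matched pairs. The sample titles end in 1, 2 or 3, a number whose meaning the labels do not give, and it was added as a replicate block after seeing the data. With that block 85 bins were called, 77 of the 80 among them, 24 genes on exon usage, 7 on balance, 57 on level and 2 intron clusters. Deviations from the genotype means correlated at a median of 0.0698 (-0.016 to 0.0924) in the 9 pairs of opposite genotype that share the number and at -0.0286 (-0.0934 to 0.0341) in the 16 that do not, so the pairing was not established. Without the 2 libraries of discordant sex, 50 member bins were called in place of 80, 3 genes on balance in place of 6, and 36 genes on level in place of 65. Leaving out 1 library at a time gave 43 to 70 bins, 12 to 22 genes with changed exon usage in place of 23, 3 to 7 genes on balance, and 47 to 64 genes on level. The authors' deposited adjusted p called 152 bins, and genes over 1000 kb alone held 20 called bins. Balance was called in 2 genes with the split set for equal numbers of bins, in 12 with limma on the log2 ratio and in 14 with DESeq2. Level was called in 103 genes with TPM rescaled by median-of-ratios, in 114 with edgeR on bin counts and in 122 with DESeq2 on bin counts. The cause of these differences was not tested. Of the 80 bins, 20 were called under every alternative run for them, 60 were lost under at least 1 and none changed sign. Depth limits the small exons and the bins near the count minimum of 10 reads.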
